A study of Mus musculus with 6 samples.

Results

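Autophagy is the process by which a cell wraps part of its cytoplasm in a membrane and delivers it to lysosomes for breakdown. The scaffold protein RB1CC1, also known as FIP200, holds together the ULK kinase complex that starts it. A lipid kinase complex around Beclin 1 then marks the membrane, an ATG7- and ATG5-dependent conjugation system attaches proteins of the ATG8 family to it, and cargo receptors such as p62, the product of Sqstm1, bring in what is to be degraded. In developing lymphocytes this machinery is known for supporting survival and for removing damaged organelles.

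The genes described here are 9 core members of this pathway, Rb1cc1, Ulk1, Atg13, Becn1, Atg5, Atg7, Map1lc3b, Gabarapl1 and Sqstm1, read by every probe set annotated with that gene symbol alone. By this rule 7 of the 9 genes were found, through 17 probe sets, among 17097 genes with a single-symbol probe set. Where a gene had several, its main value was that of the probe set with the highest mean over all arrays. Map1lc3b had no named probe set here, and the only one listed for Sqstm1 is also listed for its neighbour Mrnip. Rb1cc1 was selected on its difference between the groups in these same data, so its values are described and not tested. The other genes were chosen by pathway, with their results known.

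The 6 samples were each hybridised to an Affymetrix array of perfect-match probes. RNA came from pro-B cells, early B cell precursors, sorted as B220+CD43+IgM- cells from wild-type mice (3 arrays) and from mice labelled HDAC7 deficient (3 arrays), and 25 ng of each was amplified before labelling. HDAC7, a histone deacetylase of class IIa, was studied for its part in silencing genes of other lineages in B cell precursors. The design text calls the deficient animals conditional. Their Cre driver, deleted exons, ages and strain are not stated in the labels. The labels speak of biological triplicates without saying how many animals stand behind each array.

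Several facts about the arrays bear on every value below. Wild-type replicate 3 stood apart, with correlations of 0.70 to 0.82 with the other arrays, an interquartile range of 1.72 against 2.27 to 2.93 elsewhere, and an Actb signal that exceeded mid-transcript by 1.69 at the 3' end, where the other arrays had 0.16 to 0.26. The same measure for Gapdh was 0.25 on that array and 0.22 to 0.33 on the others. Hybridisation spike-in controls and Xist together divided the arrays across genotypes, with HDAC7-deficient replicates 2 and 3 and wild-type replicate 3 high and the other 3 arrays low. Xist read 11.4 and 11.3 on those HDAC7-deficient arrays, 8.51 on wild-type replicate 3 and 4.87 to 5.38 on the rest. Below, the division is named by spike-in signal, but Xist differs along it too, and what sets it was not tested. Hdac7 itself gave 9.06, 9.48 and 7.31 in wild type and 9.95, 9.54 and 9.27 on the arrays labelled HDAC7 deficient, so it does not check the labels, since it is not known here whether its probes lie in the deleted part. The 11 pro-B markers measured averaged 8.78 to 10.1 per wild-type array and 9.51 to 10.3 per HDAC7-deficient array, the lowest being wild-type replicate 3. Their median difference was 0.13 with all arrays and -0.25 without that array, when 2 of the 11 were higher, against 43.2% of all genes. The 7 neutrophil genes averaged 10.0 to 11.2 and 10.9 to 11.5 on the same arrays, with a median difference of 0.50, or 0.25 without wild-type replicate 3, and their part in the results below was not tested. Median differences were 0.11 for 6 macrophage, 0.52 for 8 T or NK cell and -0.08 for 3 erythroid markers, and 0.16, 0.28 and 0.04 without that array. In a bulk sample fewer cells of a type and less RNA per cell cannot be told apart.

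Rb1cc1 was higher on all 3 arrays labelled HDAC7 deficient through its only single-symbol probe set, 1431605_PM_at. It read 4.42, 4.73 and 4.45 (log2) on wild-type replicates 1 to 3 and 5.73, 6.06 and 6.04 on HDAC7-deficient replicates 1 to 3. The 3 values of each group lay close together and the groups were far apart, including on wild-type replicate 3, which read 0.12 below the mean of the other wild-type arrays. Group means were 4.53 ± 0.17 and 5.95 ± 0.18 (SD, n = 3 each), a difference of 1.41 ± 0.17 (standard error), or 2.66-fold on the linear scale.

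That difference was 1.37 without wild-type replicate 3, and 1.16 within the arrays of low and 1.60 within those of high spike-in signal. The Rb1cc1 signal itself was weak. It stood at percentile 8.62 to 23.2 of all probe sets on the wild-type arrays and at percentile 48.3 to 54.1 on the HDAC7-deficient ones. On each wild-type array it lay among the dimmest 25% of probe sets.

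A further pair of probe sets is listed for Rb1cc1 together with 4732440D04Rik, a long non-coding RNA gene that overlaps the start of Rb1cc1 in RefSeq's gene table. They did not show the same separation. The first, 1449292_PM_at, read 6.30, 7.33 and 6.98 in wild type and 7.98, 7.41 and 7.18 in HDAC7 deficient, a difference of 0.65 ± 0.36. The second, 1418968_PM_at, read 5.79, 6.30 and 6.16 against 6.96, 6.06 and 6.004, a difference of 0.26 ± 0.32.

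In both of these the groups overlapped, and HDAC7-deficient replicate 1 was the highest array. Within the arrays of low spike-in signal, where that array is the only deficient one, they differed by 1.16 and 0.92, and within the arrays of high signal by 0.31 and -0.13. The probe set of 4732440D04Rik alone, 1436282_PM_at, lay between 3.71 and 3.87 on all 6 arrays, at percentile 2.04 of mean signal. The pair is listed under a different GenBank record from that of 1431605_PM_at, and which Rb1cc1 transcripts each one reads was not tested. The separation of the groups was seen in 1431605_PM_at and in neither of the other probe sets listed for Rb1cc1.

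**Figure D1:**
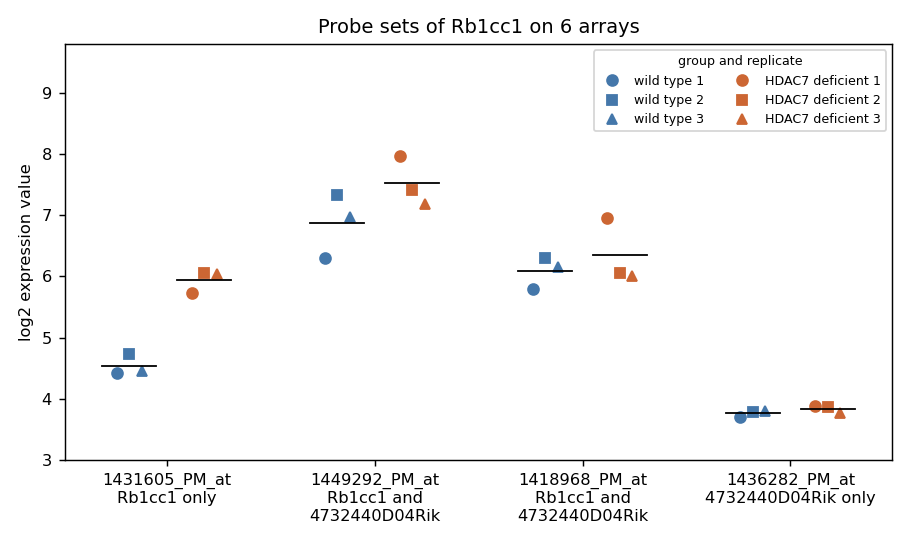
Log2 expression values of 4 probe sets at the Rb1cc1 locus on each of the 6 arrays; colours give the group, symbols the replicate and lines the group mean. The groups are apart for 1431605_PM_at (4.42 to 4.73 against 5.73 to 6.06) and overlap for the pair shared with 4732440D04Rik, where HDAC7-deficient replicate 1 is highest.

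Immediate early and stress genes, known for their fast response to stimuli and handling, were at a higher level with HDAC7 deficiency as well. A higher mean was found for 12 of the 12 measured genes of the 14 listed, against 48.0% of all genes, with a median difference of 2.04. The groups did not overlap for 8 of them, all higher, against 9.45% of all genes on the higher side and 26.3% in either direction. The mean level of the list was 6.68 to 7.25 per wild-type array and 8.22 to 9.70 per HDAC7-deficient array, without overlap. Genes of plasmacytoid dendritic cells were also higher in 4 of the 4 measured of the 6 listed, against 48.0% of all genes. Siglech and Bst2 were listed but not measured. Their mean levels, 6.87 to 9.32 and 9.26 to 10.1, overlapped, and the 6.87 was wild-type replicate 3. Their median difference was 1.41, and 0.81 without that array. Tlr7 and Klk1 then differed by 1.47 and 1.35, and Irf8 and Ly6d by 0.07 and 0.27. The part of either in the Rb1cc1 difference was not tested.

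The genes most like Rb1cc1 were those whose log2 values, each centred on the gene's own mean, had the smallest root mean square difference from it over the 6 arrays. Naip5, which encodes a sensor of bacterial flagellin, was the nearest of 17096 at 0.14, with 6.03, 6.16 and 5.59 in wild type and 7.07, 7.38 and 7.37 in HDAC7 deficient. Fbxo33, an F-box gene, followed at 0.15, then 4930403D09Rik at 0.15, Malt1, a signalling protease of lymphocytes, at 0.17, and Brip1os at 0.18. Their own differences ran from 1.12 to 1.35, which follows from choosing genes by likeness to Rb1cc1. Of the other core autophagy genes Ulk1 was the nearest at 0.48, rank 768, followed by Atg5 at rank 1068 and Atg7 at rank 1799. Becn1 was the farthest at 1.13, rank 14882.

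Ulk1 and Atg13, the other core members of the ULK complex, differed by less than the 1.41 of Rb1cc1 on 1431605_PM_at. Rb1cc1 was selected on that difference, so the comparison of sizes says little about its partners. The pair of probe sets that Rb1cc1 shares with 4732440D04Rik differed by 0.65 and 0.26. Ulk1, the kinase, read 7.98, 8.29 and 7.80 in wild type and 8.37, 8.77 and 8.40 in HDAC7 deficient through its main probe set, 1448370_PM_at. Every deficient array was above every wild-type array, by as little as 0.07 between the nearest. The difference was 0.49 ± 0.29, with a limma p of 0.397 adjusted over all 17097 genes, and it was -0.014 after quantile normalization. The other Ulk1 probe set, 1416504_PM_at, differed by 0.00 ± 0.21, at 6.40 to 6.64 in wild type and 6.51 to 6.59 in HDAC7 deficient.

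Atg13, the adaptor that binds ULK1 and RB1CC1, had intermixed groups. Its main probe set, 1423794_PM_at, read 7.43, 7.63 and 7.74 in wild type and 7.49, 7.76 and 7.47 in HDAC7 deficient. The difference was -0.03 ± 0.25 (limma adjusted p = 0.947), turning to 0.04 without wild-type replicate 3 and to 0.11 when arrays were centred on their medians, and it was -0.50 after quantile normalization. Its second probe set differed by -0.02 ± 0.22 with the deposited values. Wild-type replicate 3 was not low for this gene, at 0.21 above the mean of the other wild-type arrays.

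Becn1 encodes Beclin 1, a subunit of the lipid kinase complex. It read 10.19, 10.37 and 6.78 in wild type and 10.48, 10.56 and 10.55 in HDAC7 deficient through 1455880_PM_s_at. The groups did not overlap, yet wild-type replicate 3 alone was 3.51 below the mean of the other wild-type arrays. The difference was 1.41 ± 0.93 (limma adjusted p = 0.410) with all arrays and 0.24 ± 0.11 (limma adjusted p = 0.371) without that array. Becn1 thus had the same mean difference as Rb1cc1, 1.41, from an opposite layout of the arrays, since here 5 of the 6 lay within 0.37 of each other.

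The remaining Becn1 probe sets repeated the contrast between bright and dim signals. On 1460320_PM_at the 5 other arrays read 9.37 to 9.71 and wild-type replicate 3 read 6.24, and the difference went from 1.21 to 0.11 without it. On 1437006_PM_x_at all 6 arrays read 6.71 to 6.91 and the difference was 0.05 ± 0.21.

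Atg5 and Atg7 belong to the conjugation machinery: ATG7 is the activating enzyme, and ATG5 forms part of the conjugate that directs lipid attachment. Atg5 read 7.41, 7.92 and 6.78 in wild type and 7.84, 8.15 and 7.80 in HDAC7 deficient (1418236_PM_s_at), a difference of 0.56 ± 0.35 (limma adjusted p = 0.405). Atg7 read 8.08, 8.48 and 6.90 against 8.16, 8.73 and 8.59 (1428612_PM_at), a difference of 0.67 ± 0.46 (limma adjusted p = 0.418).

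On both of these main probe sets the groups overlapped, wild-type replicate 3 was the lowest array, and wild-type replicate 2 lay among the deficient arrays. Without wild-type replicate 3 the differences were 0.26 and 0.21. Within the arrays of low spike-in signal they were 0.17 and -0.12, and within those of high signal, which hold wild-type replicate 3 and no other wild-type array, 1.20 and 1.76. The 3 Atg5 probe sets differed by 0.56 to 0.90, and the 4 Atg7 probe sets by -0.18 to 0.67. On 1418235_PM_at of Atg5 and 1428610_PM_at of Atg7 every deficient array was above every wild-type array. Their differences were 0.90 ± 0.46 and 0.25 ± 0.21, with limma p-values of 0.361 and 0.475 adjusted over all probe sets. Without wild-type replicate 3 they were 0.40 and 0.14. On the other probe sets of both genes the groups overlapped.

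Among the 7 core genes with a window in the RefSeq promoter table, Atg5 and Atg7 are those whose promoters hold the letters CACGTG, the core of the site bound by TFEB and TFE3, factors known for switching on lysosomal and autophagy genes. The table (GRCm38.p6, windows from 250 bases before to 50 after a gene's listed start) has no entry for Rb1cc1 and Becn1, whose promoters were not analysed here, and 2 of the 7 windows had the motif, against 7.15% of all 32851 windows. CACGTG reads the same on both strands. The 40 bases around each match are shown because they mark how these promoters differ from the other 5, with the motif in capitals, on the + strand at chr10:44268308-44268347 for Atg5 and chr6:114670947-114670986 for Atg7, where the listed start lies inside the gene.
Atg5: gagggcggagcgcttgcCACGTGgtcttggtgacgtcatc
Atg7: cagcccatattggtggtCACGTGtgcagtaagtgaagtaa
A match is a description of letters and not of binding. Tfeb and Tfe3 themselves differed by 0.35 ± 0.26 and 0.61 ± 0.35, with limma adjusted p-values of 0.438 and 0.390, and by 0.17 and 0.33 without wild-type replicate 3.

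Gabarapl1, an ATG8 family member that is attached to the growing membrane, read 9.14, 9.23 and 7.56 in wild type and 9.30, 9.22 and 9.35 in HDAC7 deficient (1416419_PM_s_at). Apart from wild-type replicate 3 the arrays were nearly level. The difference was 0.65 ± 0.49 (limma adjusted p = 0.440), and 0.11 without that array. Its second probe set, 1416418_PM_at, went from 1.16 to 0.34 in the same way.

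The probe set shared by Sqstm1 and Mrnip, 1450957_PM_a_at, read 9.13, 9.45 and 6.67 in wild type and 9.33, 9.73 and 9.88 in HDAC7 deficient. The groups overlapped through HDAC7-deficient replicate 1. The difference was 1.23 ± 0.72, with a limma p of 0.383 adjusted over all probe sets, and 0.36 without wild-type replicate 3. It cannot be assigned to Sqstm1.

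**Figure D2:**
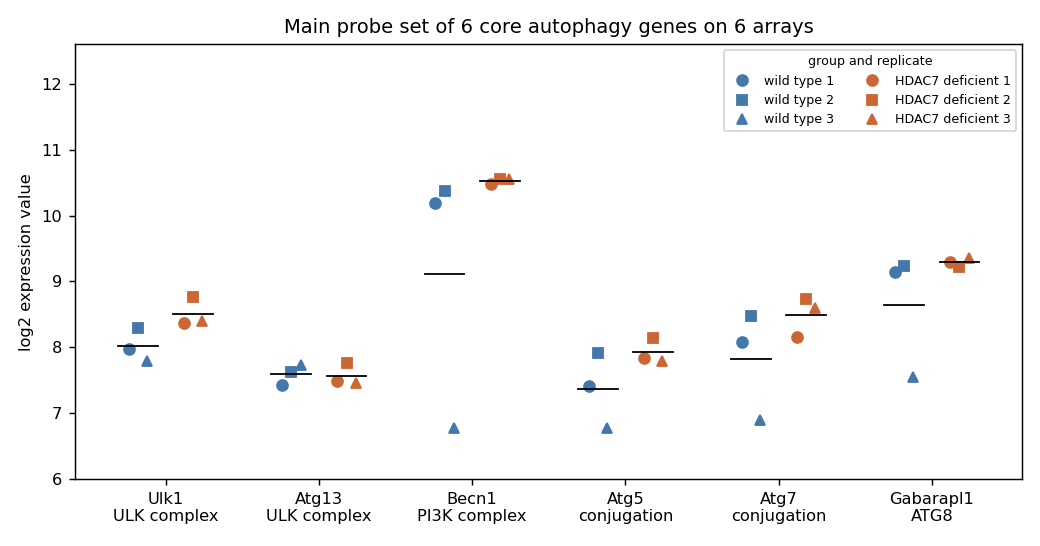
Log2 expression values of the main probe set of 6 core genes on each array; colours give the group, symbols the replicate and lines the group mean. Wild-type replicate 3 lies 3.51 (Becn1), 1.63 (Gabarapl1), 1.38 (Atg7) and 0.89 (Atg5) below the mean of the other wild-type arrays, and 0.34 below it for Ulk1 and 0.21 above it for Atg13.

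Counted together, 5 of the 6 genes other than Rb1cc1 had a higher mean in HDAC7 deficient, as did 48.0% of all genes. Their median difference was 0.60, against -0.03 over all genes. After quantile normalization 4 of the 6 were higher, with a median of 0.27, and after centring arrays on their medians, which moved the median of all genes to 0.10, all 6 were, with a median of 0.74. None passed a limma adjusted p of 0.05, and 0% of all 17097 genes did. None of the 6 reached an unadjusted limma p of 0.05 either, a level reached by 12.7% of all genes. The groups did not overlap for 2 of the 6, Ulk1 and Becn1, both higher, as for 9.45% of all genes on the higher side and 26.3% in either direction. With limma array weights, which rest the wild-type mean almost wholly on replicate 1, Ulk1, Atg5 and Atg7 passed (adjusted p = 0.00481, 0.00765 and 0.0199), as did 8452 of all genes.

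The 6 genes stood at percentile 69.9 to 95.1 of all genes in mean signal, and genes of strong signal read low on wild-type replicate 3. Their median difference from the other wild-type arrays was -1.14 there, and the 4275 genes in the brightest 25% had -1.37 and a median group difference of 0.56. Of those brightest genes 89.6% had a higher mean in HDAC7 deficient. Without wild-type replicate 3 the medians were 0.23 for the 6 genes and 0.06 for the brightest genes. All 6 genes were then higher, as were 43.2% of all genes and 59.9% of the brightest. None of the 6 then had an unadjusted limma p under 0.05, against 14% of all genes.

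The probe sets gave like counts. Of the 16 probe sets of these 6 genes 11 were higher on the deficient arrays, as were 48.0% of all 45037 probe sets. In 4 of the 16 the groups did not overlap, each on the higher side, as for 11.5% of all probe sets. Wild-type replicate 3 was the lowest array in 10 of the 16, and in 7 it lay more than 1 below the other wild-type arrays. Without it 14 were higher, as were 48.4% of all probe sets, with no difference above 0.40 in size.

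**Figure D3:**
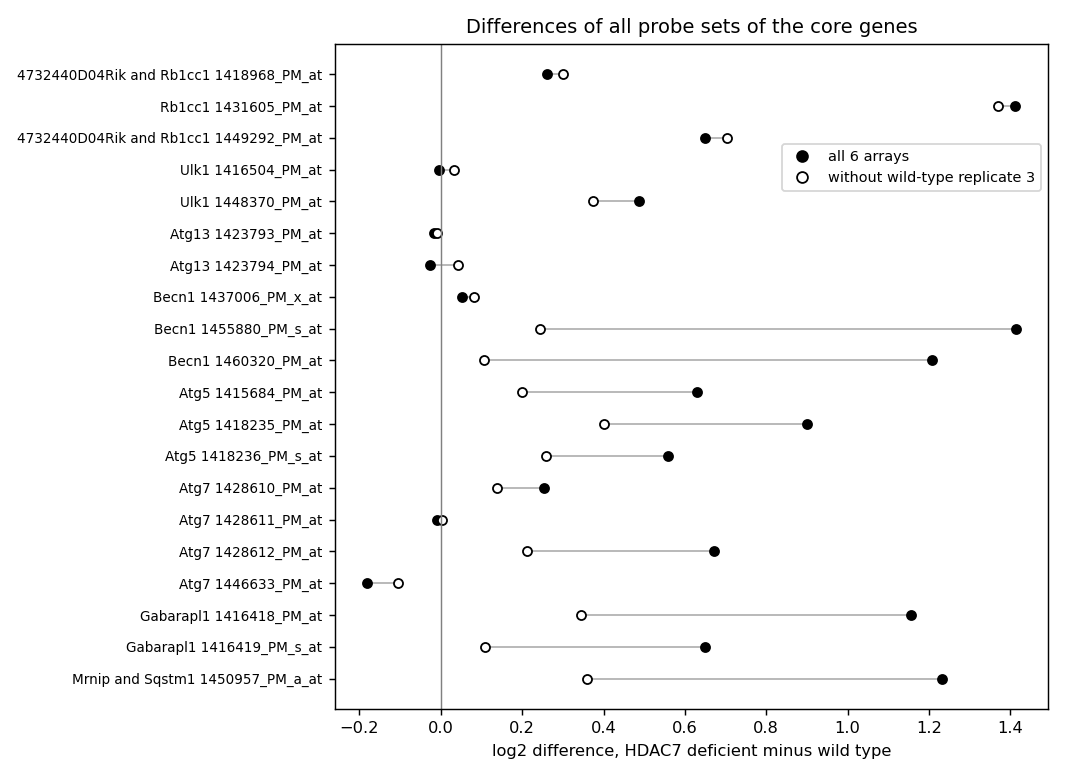
Log2 difference (HDAC7 deficient minus wild type) of every probe set listed for a core gene, with all 6 arrays (filled) and without wild-type replicate 3 (open); 2 symbols mark a probe set shared by both genes. The 1.41 of Rb1cc1 1431605_PM_at becomes 1.37, and the 1.41 of Becn1 1455880_PM_s_at becomes 0.24.

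Of 79 further genes of the pathway 71 were measured under a single symbol, and 65 of these had a higher mean on the arrays labelled HDAC7 deficient. The median difference was 0.48 and 91.5% of the list were higher, against -0.03 and 48.0% over all genes. Among the 4275 brightest genes described above the median was 0.56 and 89.6% were higher. How far signal strength accounts for the counts of the list was not tested. After quantile normalization 51 members were higher, with a median of 0.32, and after median centring 67, with 0.61. No member passed a limma adjusted p of 0.05, the smallest being 0.377. At an unadjusted p of 0.05 there were 3 members, all higher. That is 4.23% of the list, against 12.7% of all genes, of which 3.52% were higher and 9.14% lower. Groups did not overlap for 17 members, all higher, which is 23.9% of the list against 26.3% of all genes, of which 9.45% were higher and 16.8% lower. For the 4275 brightest genes this share was 18.5%, with 726 genes higher and 66 lower. Without wild-type replicate 3 the median of the list was 0.19 and 58 members, 81.7%, were higher. The share was 43.2% for all genes and 59.9% for the brightest, whose median was 0.06. Without that array 4 members had an unadjusted limma p under 0.05, all higher, as had 5.19% of all genes on that side. Again none passed when adjusted (smallest 0.291).

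Atg9a, the lipid scramblase of vesicles that seed the membrane, was the gene with the smallest p on this list. Its difference was 1.20 ± 0.40, and 0.83 without wild-type replicate 3 (limma adjusted p = 0.377 with all arrays). Trp53inp2, a nuclear and autophagosomal regulator, read 6.90, 7.22 and 6.49 in wild type and 7.15, 9.14 and 9.25 in HDAC7 deficient. HDAC7-deficient replicate 1 lay within the wild-type range and the other two were far above it. The mean difference was the largest of the list, 1.64 ± 0.59, and 1.45 without wild-type replicate 3, but it was 0.09 within the arrays of low and 2.70 within those of high spike-in signal.

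Map1lc3a, which encodes the ATG8 protein LC3A, differed by 1.13 ± 0.44, and by 0.75 without wild-type replicate 3. The other ATG8 genes, Gabarap and Gabarapl2, had 1.07 ± 0.72 and 0.69 ± 0.42, and 0.19 and 0.28 without that array. Tmem41b, which encodes a lipid scramblase of the endoplasmic reticulum, had 0.82 ± 0.36, and Atg16l2, a relative of the conjugation factor ATG16L1, 0.48 ± 0.21. Without wild-type replicate 3 these were 0.53 and 0.40. Neither pair of groups overlapped, and their limma adjusted p was 0.377 each with all arrays.

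Further large differences were also smaller when wild-type replicate 3 was left out. Vamp8, a membrane fusion protein, went from 1.25 to -0.02, Atg101, a partner of ATG13, from 1.17 to -0.10, and Nbr1, a cargo receptor, from 1.13 to 0.26. Pik3c3, the catalytic subunit of the Beclin 1 complex, went from 0.97 to 0.45 and Atg16l1 from 0.74 to 0.25. On the lower side Wipi1, which binds the marked membrane, differed by -0.34 ± 0.36, the kinase subunit gene Prkaa2 by -0.32 ± 0.23 and the receptor gene Calcoco2 by -0.30 ± 0.24. Trp53inp1 and Tsc1, an inhibitor of growth signalling, had -0.21 and -0.09. Without wild-type replicate 3 Wipi1 was at 0.02, Prkaa2 at -0.06, Calcoco2 at -0.08, Trp53inp1 at -0.11 and Tsc1 at -0.12.

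By role, the medians were 0.93 for the 2 further ULK complex genes, 0.42 for 6 of the lipid kinase complex, 0.37 for 7 of conjugation and 1.07 for 3 of the ATG8 family. They were 0.54 for 10 genes of membrane supply, 0.48 for 11 cargo receptors, 0.53 for 13 genes of fusion with lysosomes and 0.35 for 19 upstream regulators. Without wild-type replicate 3 they were between 0.12 and 0.28. Among the regulators Mtor, the kinase that restrains the ULK complex, differed by 0.21 ± 0.28 and by 0.12 without that array.

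**Figure D4:**
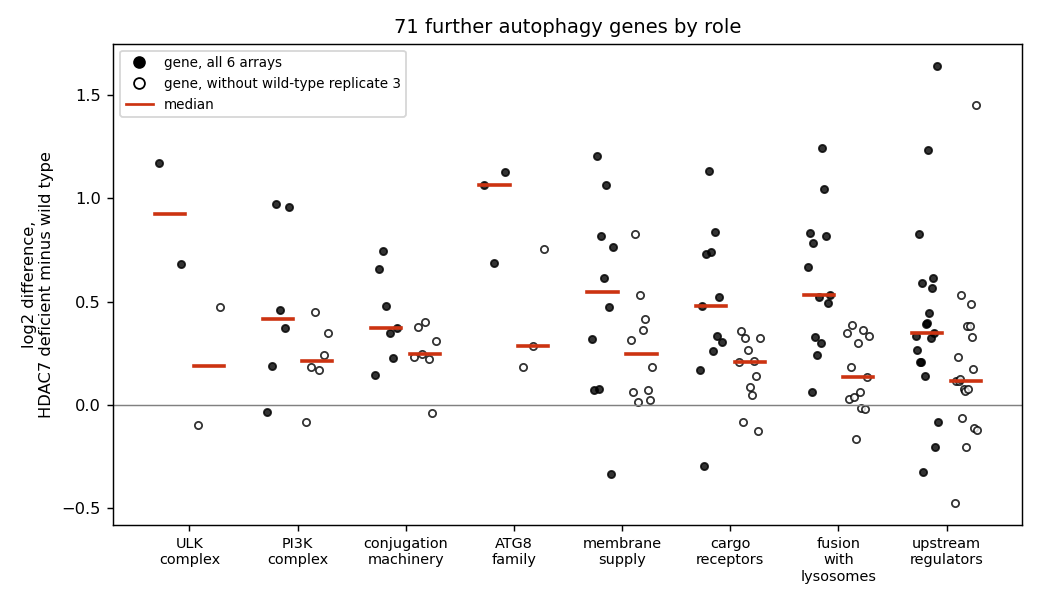
Log2 difference (HDAC7 deficient minus wild type) of 71 further autophagy genes by role, each point a gene, with all 6 arrays (filled) and without wild-type replicate 3 (open); red lines are medians. The medians of 0.35 to 1.07 with all arrays fall to 0.12 to 0.28, and Trp53inp2 is at 1.45.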

How the data were processed

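For every array the authors deposited 1 log2 value per probe set. Per the labels' protocols, RNA was amplified by whole transcriptome amplification, biotin labelled and hybridised to Affymetrix PM strip arrays for mouse. How they were summarised and normalized is not given in the sources used here; that the scale is log2 was inferred from the range. Array medians were 5.83 to 6.15, and the number of arrays limits the precision.

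After 104 control probe sets were set aside, 45037 remained. The platform annotation gave 1 symbol for 28898, several for 551 and none for 15588. Of the 28898, 28689 were matched by Entrez number to RefSeq symbols (table of GRCm38.p6, used for names and neighbours). Groups were fitted with limma 3.58.1 in R 4.3.3 (moderated variances with an intensity trend, two-sided, Benjamini-Hochberg over all genes, threshold 0.05, no filter). The fit was tested on simulated data. With 3 arrays a group, an exact permutation p cannot go below 0.1. P-values set each group difference against the spread between these arrays, moderated over all genes. How many animals stand behind each array is not stated.

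Members, lists and tests were chosen with earlier results of these data known. Named were all core genes, the 5 further genes per direction with the smallest p, the largest difference per role, a few others to complete a role (chosen after their values were seen) and the 5 genes nearest to Rb1cc1. Plots used Python 3.11.15 and matplotlib 3.10.9.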

Additional observations from a re-analysis of the deposited data

How the results depend on the processing

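The Rb1cc1 difference of 1.41 was 1.16 to 1.58 under the 14 alternatives that gave a value. Its groups do not overlap, so leaving out or weighting arrays could not change its sign. With no variance trend, the mean over probe sets or the replicate block, the difference is 1.41 by construction. It was 1.35 to 1.52 when each array was left out in turn and 1.16 with the spike-in division as a block and wild-type replicate 3 left out. Rb1cc1 fell out when the dimmest 25% of genes were left out. With equal array weights no gene passed with all arrays and no block, but 1 did with the replicate block (Hspa1b, 3515 at an unadjusted p under 0.05) and 4 with the spike-in block without wild-type replicate 3 (Fos, Fosb, Jun and H1f2); these 5 were named after their values were seen. The spike-in block alone gave 7288 at an unadjusted p under 0.05, and 0 adjusted. Same-numbered arrays deviated together with correlations of 0.10, 0.21 and 0.48. The replicate block rests on a number alone.

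Array weights gave 8452 genes past the adjusted threshold and 9614 at an unadjusted p under 0.05, with 34 of the further autophagy genes, and limma adjusted p-values of 0.00481 for Ulk1, 0.00765 for Atg5 and 0.0199 for Atg7. They put wild-type replicate 1 at 8.68 and the other wild-type arrays at 0.471 and 0.0716, so that the wild-type mean is nearly that array. Under these weights Atg13 was at 0.23, and after quantile normalization at -0.50. It was also positive with median centring (0.11) and without wild-type replicate 3 (0.043) or HDAC7-deficient replicate 1 (0.015) or 3 (0.027), with -0.12 the lowest over all arrays left out. Ulk1 was at -0.014 after quantile normalization, and Atg7 at -0.12 with the spike-in block without wild-type replicate 3. Leaving out 1 array gave 626 (without HDAC7-deficient replicate 2) to 5801 (without wild-type replicate 2) genes at an unadjusted p under 0.05, and 0 adjusted. Groups then did not overlap for 3 to 6 of the 7 measured core genes, all higher. Rb1cc1, selected on its difference, is counted in each. Over all genes this held for 9.94% to 26.5% on the higher side and 28.2% to 61.2% in either direction. The highest of each, 6 core genes, 26.5% and 61.2%, came without wild-type replicate 2.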
